A study of Mus musculus with 72 samples.

Results

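Cerebellum was compared with forebrain in mice of postnatal day (P) 30, on 18 of the 72 arrays of a series that covered 3 brain regions at 4 ages. All P30 arrays were taken, 6 of cerebellum, 6 of cerebral cortex and 6 of hippocampus, and the forebrain level of a gene was the mean of its cerebral cortex and hippocampus means. Each region had 3 arrays of Ts1Cje mice and 3 of disomic mice, and genotype entered the fit as a term, so that a regional difference was measured within genotypes. Ts1Cje mice carry an extra copy of a segment of mouse chromosome 16 (MMU16), which is a partial trisomy used as a model of Down syndrome, and the extra copy of *Sod1* at its end is not functional. According to the study, Ts1Cje mice also have a partial monosomy of MMU12, with *Itgb8*, *Sp8* and *Dnah11* among the genes deleted. Disomic mice are their littermates without the extra segment, and all mice were females from crosses of Ts1Cje males with C57BL/6 females, on a standard diet and an equal light and dark cycle. According to the methods the 3 regions were dissected from the same 3 Ts1Cje and 3 disomic mice, but the labels do not say which arrays share a mouse, so the p-values measure the spread between arrays.

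Total RNA of each region was labelled in a 2-cycle assay and hybridised to Affymetrix Mouse Genome arrays of 45101 probe sets. Values are the authors' log2 gcRMA values, so a difference of 1 is a 2-fold difference. Differentially expressed genes (DEGs) were called with limma under the thresholds of the study's methods, which asked for a moderated t beyond 4 in either direction and, across the 45101 probe sets, an adjusted p (Benjamini-Hochberg) up to 0.05. Genes are given by 1 probe set each, the one with the highest mean over the 72 arrays, for 18194 genes. Higher and lower below mean called against the forebrain average, unless 1 region is named. The median of the values on each P30 array lay between 3.23 and 3.28, and a level at or below that was not shown to be above background, which leaves the size of a difference from it unresolved.

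The cerebellum is built from very many small granule neurons, whose parallel fibres excite Purkinje cells, the only output neurons of its cortex. Purkinje cells are inhibitory and fire fast, and they depend on calcium release and calcium buffering in large dendrites. Bergmann glia, a radial type of astrocyte, wrap their synapses, while stellate, basket and Golgi interneurons and excitatory unipolar brush cells make up most of the rest. The cerebral cortex and hippocampus are dominated by glutamatergic pyramidal and granule neurons with spines, alongside several classes of peptide-expressing inhibitory interneurons. The 2 tissues arise from different parts of the neural tube, the hindbrain and the forebrain, which are set apart by their own transcription factors.

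The regional labels were checked against markers of each tissue and held for all 18 arrays. The granule neuron gene *Gabra6*, the Purkinje cell gene *Pcp2* and the Bergmann glia gene *Gdf10* were higher in every cerebellum array than in every forebrain array, and the pyramidal neuron genes *Neurod6* and *Camk2a* were lower. Placed on a line from the mean forebrain profile at 0 to the mean cerebellum profile at 1, 4 of the 6 cerebellum arrays lay between 0.989 and 1.00 and 11 of the 12 forebrain arrays between -0.018 and 0.042. The other 3 arrays stood apart. Disomic cerebellum replicate 2 lay at 0.916, and its values of forebrain genes such as *Sst* (5.53 against 2.41 to 2.94 in the other 5 cerebellum arrays) and of the thalamic gene *Tcf7l2* (7.17 against 2.88 to 4.06) were raised. Ts1Cje cerebellum replicate 3 lay at 0.951. Ts1Cje hippocampus replicate 3 lay at 0.055, and held more of the cerebellar transcripts *Pcp2* (6.39 against 3.09 to 4.28 in the other 5 hippocampus arrays) and *Gabra6* (5.12 against 1.79 to 2.48). All 18 arrays were used, and values without these 3 arrays are given beside the results they touch. A pair of P15 arrays whose markers went against their labels entered only the comparison between ages, where their values are given.

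The promoters of the 3 genes with the largest differences are shown because each carries a short motif of a factor known to act in the cell type that expresses the gene. Each runs 5′ to 3′ from 250 bases before to 50 bases after a start site in RefSeq (GRCm38.p6), and the capitals mark the motif. For *Gabra6* (chr11:42321023-42321322, minus strand) and *Cbln3* (chr14:55884207-55884506, minus strand) this is TTGGCA, the core of a binding site of nuclear factor I proteins, found here on the other strand as TGCCAA. For *Pcp2* (chr8:3625498-3625797, minus strand, the first of 4 listed starts) it is AGGTCA, the core of a binding site of the nuclear receptor encoded by *Rora*.
Gabra6: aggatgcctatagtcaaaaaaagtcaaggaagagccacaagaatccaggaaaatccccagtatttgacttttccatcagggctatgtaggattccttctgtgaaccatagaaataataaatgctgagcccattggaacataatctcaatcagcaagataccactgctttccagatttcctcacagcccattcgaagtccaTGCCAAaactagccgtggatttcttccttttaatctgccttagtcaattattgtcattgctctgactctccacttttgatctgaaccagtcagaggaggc
Cbln3: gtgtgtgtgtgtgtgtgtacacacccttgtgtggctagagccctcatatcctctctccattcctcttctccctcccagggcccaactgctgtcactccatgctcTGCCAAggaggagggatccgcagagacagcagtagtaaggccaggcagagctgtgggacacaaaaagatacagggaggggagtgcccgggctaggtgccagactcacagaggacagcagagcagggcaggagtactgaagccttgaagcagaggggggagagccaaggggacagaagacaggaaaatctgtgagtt
Pcp2: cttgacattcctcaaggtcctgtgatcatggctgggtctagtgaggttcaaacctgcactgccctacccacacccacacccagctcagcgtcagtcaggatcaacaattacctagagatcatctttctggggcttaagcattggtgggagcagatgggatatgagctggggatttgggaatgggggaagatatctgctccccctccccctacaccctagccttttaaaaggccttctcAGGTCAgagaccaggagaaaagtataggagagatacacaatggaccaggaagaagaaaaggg
The first capital stands at -50 in *Gabra6*, at -146 in *Cbln3* and at -12 in *Pcp2*, counted from the start site. Each motif was searched on its own, on both strands. TTGGCA occurred in 12.6% of 824 promoters of genes more than 2-fold higher in cerebellum than in both forebrain regions. It occurred in 10.8% of 1060 promoters of genes more than 2-fold lower, and in 14.1% of all 32851 promoters of the same length. AGGTCA occurred in 14% and 8.77% of the same promoters and in 16.3% of all, so that neither motif was commoner among the genes higher in cerebellum than in promoters at large, and a match is a description of the letters alone. Of the 30 genes with the largest differences, 20 had a promoter in the table.

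At P30, 2540 genes (14% of 18194) were called higher in cerebellum than in forebrain and 3168 (17.4%) lower, and the median difference over all genes was -0.01. Against cerebral cortex alone 2359 genes (13%) were higher and 2789 (15.3%) lower, and against hippocampus alone 2160 (11.9%) were higher and 2880 (15.8%) lower. These comparisons share the cerebellum arrays. A difference from the forebrain average can come from 1 region, and 770 genes (4.23%) were called higher than in both regions by at least 2-fold, with 980 (5.39%) lower. In 743 of the 770 and in 957 of the 980 the 6 cerebellum arrays did not overlap the 12 forebrain arrays. Over all genes, these included, 8.27% lay above without overlap and 10.8% below. Both sets were chosen on the same arrays, so the lack of overlap was largely set by the choice and is no separate support. Both differences reached 8 on the log2 scale in 5 genes higher in cerebellum and in 0 lower, both reached 6 in 17 higher and 16 lower, and both reached 4 in 58 higher and 95 lower. Of the 980 lower genes, 128 lay at or below the array median in all 6 cerebellum arrays, and of the 770 higher genes 99 did so in all 12 forebrain arrays. Without the 3 arrays that stood apart, 816 genes were higher and 968 lower than in both regions by 2-fold, and 2376 and 2829 against the forebrain average. Because these are bulk tissues, fewer cells of a type and less RNA per cell cannot be told apart in any of the differences that follow.

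**Figure D1:**
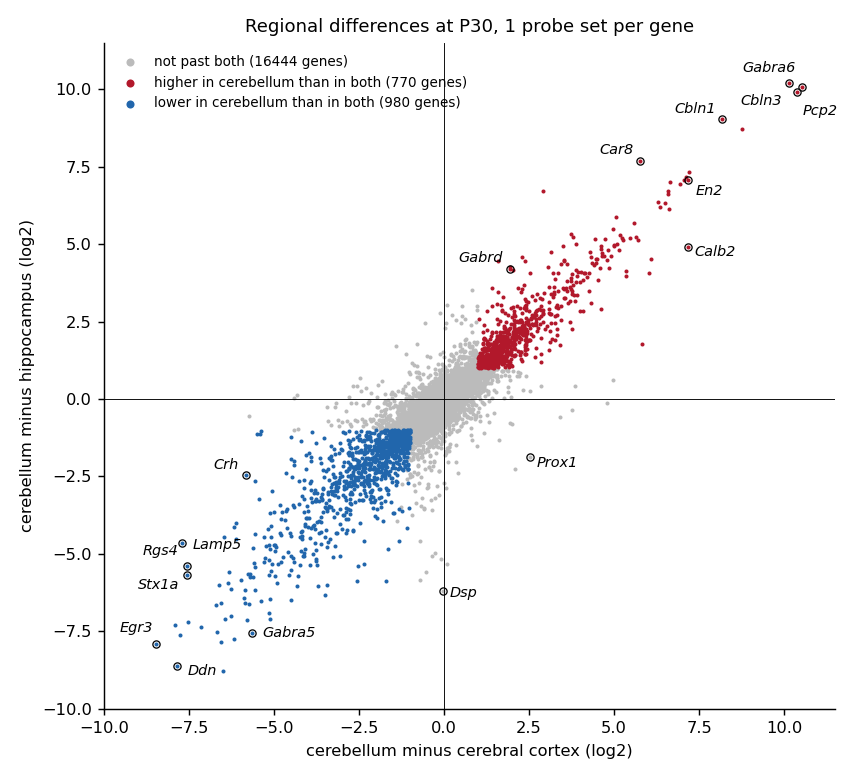
Difference of each of 18194 genes between cerebellum and cerebral cortex (x axis, log2) and between cerebellum and hippocampus (y axis, log2) at P30, with 770 genes called at least 2-fold higher than in both regions in red and 980 lower in blue. Most of the named genes lie near the diagonal, while *Dsp* and *Prox1* differ from the 2 forebrain regions in unlike ways.

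The 15 genes with the largest positive difference were led by products of granule neurons and Purkinje cells. *Gabra6*, the α6 subunit of the GABA-A receptor, ranged over 12.53 to 12.63 (median 12.58) in cerebellum, against 1.87 to 2.42 (median 1.97) in cerebral cortex and 1.79 to 5.12 (median 1.94) in hippocampus. The cerebellum arrays were nearly equal and the forebrain arrays at background, apart from the hippocampus array named above, and the difference was 10.30 ± 0.32 (SE, adjusted p = 7.45e-15). It was 10.55 without the 3 arrays. *Cbln3*, a cerebellin secreted by granule neurons, ranged over 12.34 to 12.76 (median 12.50) in cerebellum, against 2.09 to 2.58 (median 2.39) in cerebral cortex and 2.02 to 3.02 (median 2.21) in hippocampus, and *Pcp2*, a modulator of G proteins in Purkinje cells, over 13.12 to 14.09 (median 13.97) in cerebellum, against 3.13 to 3.80 (median 3.38) in cerebral cortex and 3.09 to 6.39 (median 3.28) in hippocampus. In both genes every cerebellum array lay far above every forebrain array, with differences of 10.17 ± 0.12 and 10.15 ± 0.35, and of 10.30 and 10.60 without the 3 arrays. The other 12 differed by 6.42 to 8.74. They were *Cnpy1*, a regulator of fibroblast growth factor signalling at the midbrain-hindbrain border in zebrafish, *Cbln1*, *Crtam*, an adhesion molecule known from T cells, *Ppp1r17*, a phosphatase inhibitor of Purkinje cells, *En2*, *Fat2*, *Nrk*, *Patj*, a polarity protein, *Car8*, *Arhgef33*, *Gm2694* and *Lhx1*.

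The 15 genes with the largest negative difference were led by *Ddn* (dendrin), a protein of forebrain dendrites and spines. *Ddn* ranged over 3.08 to 4.52 (median 3.58) in cerebellum, against 11.29 to 11.83 (median 11.49) in cerebral cortex and 12.14 to 12.44 (median 12.28) in hippocampus. The 3 regions did not overlap, the hippocampus arrays were the highest, and the difference was -8.23 ± 0.15 (adjusted p = 3.01e-18). The activity-induced transcription factor *Egr3* ranged over 1.60 to 2.83 (median 1.97) in cerebellum, against 10.31 to 10.60 (median 10.52) in cerebral cortex and 9.71 to 10.17 (median 9.92) in hippocampus, a difference of -8.19 ± 0.13, but 1 of its 2 probe sets was called and the other was not. The others differed by -7.70 to -6.61. They were *Ctxn1* (cortexin), *Crym*, which binds thyroid hormone, *Gda* (guanine deaminase), *Nrgn*, *Enc1*, *Ptk2b*, a calcium-activated tyrosine kinase, *Camkv*, *Bcl11b*, *Icam5*, a dendritic adhesion molecule of the telencephalon, *Sst*, *D430019H16Rik*, *Stx1a* and *Gabra5*.

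**Figure D2:**
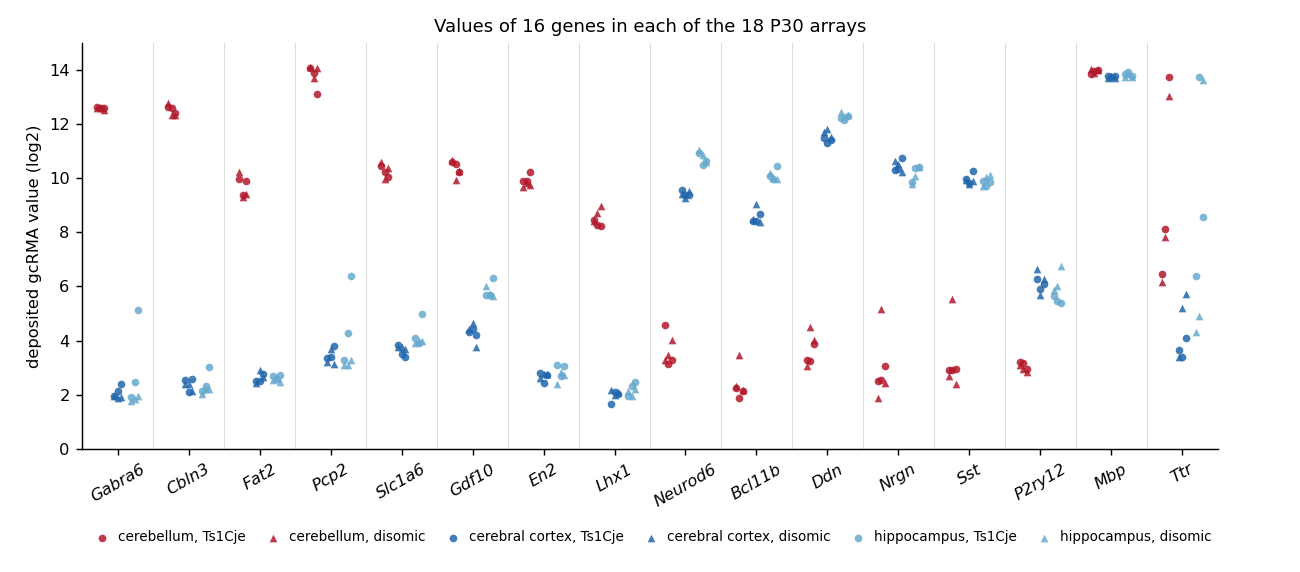
Deposited log2 gcRMA values (y axis) of 16 genes (x axis) in each of the 18 P30 arrays, with Ts1Cje as circles and disomic as triangles. *Gabra6*, *Cbln3* and *Fat2* were high in all 6 cerebellum arrays and near the floor in forebrain, *Neurod6* and *Ddn* showed the reverse, *Mbp* was level, and *Ttr* varied within each region.

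Granule neuron markers were higher in cerebellum in 16 of 18 measured genes, with 1 lower and a median difference of 4.55, against 14% higher and a median of -0.01 over all genes. The protocadherin *Fat2* ranged over 9.31 to 10.22 (median 9.64) in cerebellum, against 2.45 to 2.90 (median 2.59) in cerebral cortex and 2.47 to 2.74 (median 2.61) in hippocampus, and every cerebellum array lay above every forebrain array (7.07 ± 0.12). *Cbln1*, the cerebellin that links neurexins to delta-type glutamate receptors at parallel fibre synapses, ranged over 11.79 to 12.48 (median 12.01) in cerebellum, against 3.54 to 4.21 (median 3.83) in cerebral cortex and 2.26 to 4.26 (median 2.84) in hippocampus. It was higher by 8.60 ± 0.19, and *Neurod1*, a differentiation factor that granule neurons keep as adults, by 4.65 ± 0.083, with 11.98 to 12.25 (median 12.15) in cerebellum, against 6.57 to 7.04 (median 6.81) in cerebral cortex and 7.88 to 8.46 (median 8.18) in hippocampus. *Neurod1* was well measured in all 3 regions, and the hippocampus arrays lay above the cerebral cortex arrays. Other markers were *Calb2* (calretinin, 6.04 ± 0.16), *Zic1* (5.62 ± 0.24), *Pax6* (4.66 ± 0.13), *Chn2* (4.44 ± 0.16), a GTPase-activating protein for Rac, and *Cdh15* (2.55 ± 0.15). The exception was *Slc17a7*, the vesicular glutamate transporter that granule neurons share with forebrain pyramidal neurons, which was lower by 0.91 ± 0.13, and *Nfix* was not called (0.32 ± 0.14).

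Purkinje cell markers were higher in 19 of 21 measured genes, with a median difference of 3.10. *Car8*, a carbonic anhydrase-related protein that binds the inositol trisphosphate receptor, ranged over 12.98 to 13.19 (median 13.12) in cerebellum, against 7.08 to 7.64 (median 7.35) in cerebral cortex and 4.44 to 7.06 (median 5.27) in hippocampus. Its difference from hippocampus (7.70) was larger than that from cerebral cortex (5.77), and the 2 forebrain regions did not overlap each other. *Slc1a6*, the glutamate transporter of Purkinje cell spines, ranged over 9.98 to 10.58 (median 10.30) in cerebellum, against 3.39 to 3.85 (median 3.72) in cerebral cortex and 3.92 to 4.99 (median 3.99) in hippocampus, and the difference was 6.37 ± 0.14. *Ppp1r17* was higher by 7.14 ± 0.10, *Inpp5a*, an inositol polyphosphate phosphatase, by 4.53 ± 0.18, *Pde5a* by 3.82 ± 0.13, *Homer3* by 3.74 ± 0.16 and *Plcb4*, the phospholipase that acts below group I glutamate receptors, by 3.10 ± 0.12. Calbindin (*Calb1*) was also plain in forebrain, with 12.63 to 12.92 (median 12.81) in cerebellum, against 10.50 to 10.85 (median 10.68) in cerebral cortex and 10.14 to 10.49 (median 10.29) in hippocampus. It was 4.99-fold higher in cerebellum (2.32 ± 0.066). *Bcl11a*, which was listed because Purkinje cells express it, was lower by 3.60 ± 0.19, and *Foxp2* was not called against the average (0.17 ± 0.25), being higher than in hippocampus by 1.46 while it differed from cerebral cortex by -1.11, which was not called.

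Bergmann glia markers were higher in 11 of 13 genes, with a median of 1.54. *Gdf10*, a growth factor of the transforming growth factor β family, ranged over 9.93 to 10.69 (median 10.39) in cerebellum, against 3.78 to 4.65 (median 4.37) in cerebral cortex and 5.64 to 6.32 (median 5.70) in hippocampus. All cerebellum arrays lay above all forebrain arrays, hippocampus above cerebral cortex, and the difference was 5.30 ± 0.13. The AMPA receptor subunit *Gria4* (2.91 ± 0.10), *Timp4* (2.53 ± 0.13), *Tnc* (tenascin C, 1.99 ± 0.14) and *Hopx* (1.54 ± 0.13) were also higher, and the glutamate transporter *Slc1a3* by 1.04 ± 0.13. *Sox2* was lower by 0.48 ± 0.08 and *Sox9* differed by -0.07 ± 0.23, which was not called.

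Markers of cerebellar interneurons and unipolar brush cells were divided. Of 13 measured genes 6 were higher and 4 lower, with a median of 0.43. Of the 6 members with a mean of at least 5 over the 18 arrays, 1 was higher and 4 lower when probe sets below that mean were left out. Most of those arrays were forebrain, so the filter favoured genes expressed there. The turned balance therefore does not weigh the higher genes. The transcription factors of the inhibitory lineage *Tfap2b* (3.58 ± 0.14) and *Tfap2a* (1.61 ± 0.12), the unipolar brush cell genes *Eomes* (2.36 ± 0.20) and *Otx2* (2.20 ± 0.17), the receptor *Kit* of stellate and basket cells (2.01 ± 0.20) and the glycine transporter *Slc6a5* of Golgi cells (1.73 ± 0.098) were higher. *Grm2*, the metabotropic receptor of Golgi cells, was lower by 1.82 ± 0.11, and *Sorcs3*, *Nxph1* and *Ptprk* by 1.24 to 1.42.

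Transcription factors of hindbrain and cerebellum were higher in 23 of 30 measured genes, with a median of 1.50. With probe sets of a mean under 5 left out, 8 of the 30 were tested and 6 were higher. Forebrain arrays outweighed cerebellum arrays in that mean, so genes high in cerebellum alone tended to drop out. *En2*, the engrailed homeobox gene of the midbrain-hindbrain border, ranged over 9.65 to 10.21 (median 9.86) in cerebellum, against 2.44 to 2.80 (median 2.75) in cerebral cortex and 2.39 to 3.09 (median 2.79) in hippocampus. No forebrain array came near the cerebellum arrays (7.13 ± 0.093, adjusted p = 3.52e-20). *Lhx1*, a LIM homeobox gene kept by Purkinje cells, ranged over 8.23 to 8.97 (median 8.42) in cerebellum, against 1.66 to 2.17 (median 2.06) in cerebral cortex and 1.94 to 2.46 (median 2.17) in hippocampus, a difference of 6.42 ± 0.11. *Zic1*, a zinc finger gene of granule neurons, was high in cerebellum (13.13 to 13.41 (median 13.27)) and present in cerebral cortex (7.20 to 7.93 (median 7.80)) and hippocampus (6.16 to 8.88 (median 7.55)). Its relatives *Zic5* (4.97 ± 0.12), *Zic2* (2.99 ± 0.31) and *Zic4* (2.01 ± 0.14) were higher as well, and so were *Meis1* (4.96 ± 0.13), *Ebf1* (4.78 ± 0.15), *Barhl2* (3.24 ± 0.27) and *Irx3* (2.22 ± 0.12). *Atoh1*, which marks dividing granule precursors, differed by -0.08 ± 0.06 and lay at background in all 3 regions. *Meis2* went the other way, with 3.21 to 5.72 (median 3.48) in cerebellum, against 8.85 to 8.99 (median 8.96) in cerebral cortex and 6.91 to 7.74 (median 7.59) in hippocampus, a difference of -4.40 ± 0.26. The highest cerebellum array for *Meis2* was disomic replicate 2, and the difference was -4.75 without the 3 arrays.

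Forebrain transcription factors were lower in cerebellum in 19 of 28 measured genes and higher in 4, with a median of -1.45, where 17.4% of all genes were lower. *Bcl11b*, a zinc finger gene of deep-layer cortical and hippocampal neurons, ranged over 1.89 to 3.47 (median 2.22) in cerebellum, against 8.37 to 9.05 (median 8.45) in cerebral cortex and 9.97 to 10.43 (median 10.04) in hippocampus. Hippocampus exceeded cerebral cortex without overlap, and the difference between cerebellum and forebrain was -6.96 ± 0.17. *Lhx2* (-6.58 ± 0.17), *Neurod6* (-6.46 ± 0.16), *Lmo3* (-5.80 ± 0.11), *Tbr1* (-5.08 ± 0.17) and *Fezf2* (-4.57 ± 0.16) were lower too. The 4 that were higher in cerebellum were *Cux1* (2.52 ± 0.18), known for upper cortical layers, *Id2* (0.76 ± 0.093), *Zbtb18* (0.60 ± 0.11) and *Neurod2* (0.34 ± 0.074). The call of *Neurod2* was lost without Ts1Cje cerebellum replicate 2 or disomic cerebellum replicate 3. *Prox1*, a homeobox gene of dentate granule neurons, split the 2 forebrain regions. It ranged over 5.17 to 5.70 (median 5.52) in cerebellum, against 2.40 to 3.29 (median 3.04) in cerebral cortex and 6.72 to 7.88 (median 7.49) in hippocampus, with no overlap between any of the 3 regions. Cerebellum exceeded cerebral cortex by 2.52 and fell below hippocampus by 1.89, so that the average showed no call (0.32 ± 0.16). Such opposite calls were made in 17 genes higher than cerebral cortex and lower than hippocampus, *Zbtb20* and *Cabp7* among them, and in 12 genes the other way round.

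**Figure D3:**
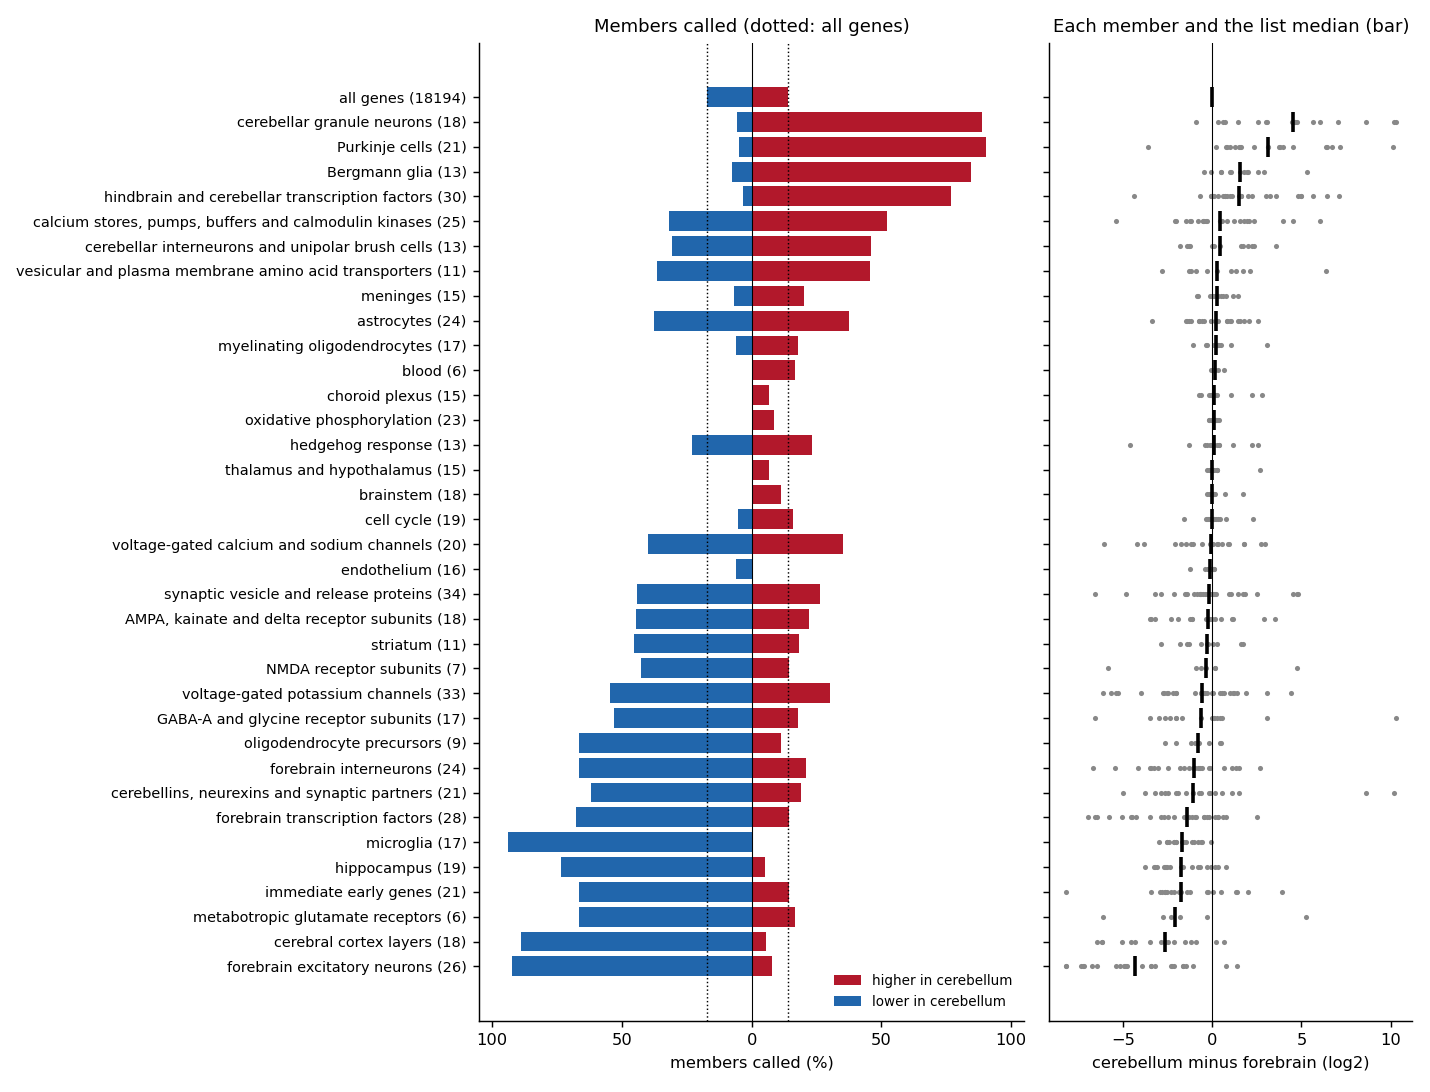
Left, percent of the measured members of 35 gene lists (rows, number measured in brackets) called higher (red, to the right) or lower (blue, to the left) in cerebellum than in forebrain at P30, with the percent over all 18194 genes dotted. Right, the difference of each member (points) and the list median (bar) on the log2 scale. Granule neuron, Purkinje cell, Bergmann glia and hindbrain lists lie to the right, and forebrain excitatory neurons, cortical layers and microglia to the left.

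Genes of forebrain excitatory neurons were lower in cerebellum in 24 of 26 and higher in 2, with a median of -4.37. Neurogranin (*Nrgn*), which binds calmodulin in spines, ranged over 1.88 to 5.16 (median 2.53) in cerebellum, against 10.23 to 10.76 (median 10.43) in cerebral cortex and 9.78 to 10.42 (median 10.22) in hippocampus. *Enc1*, an actin-binding protein, ranged over 3.94 to 8.05 (median 4.22) in cerebellum, against 12.01 to 12.20 (median 12.14) in cerebral cortex and 12.26 to 12.39 (median 12.29) in hippocampus. The highest cerebellum value of both genes was that of disomic replicate 2, without overlap with forebrain, and the differences were -7.37 ± 0.32 and -7.26 ± 0.40, or -7.94 and -7.85 without the 3 arrays. *Camk2a*, the calmodulin kinase of excitatory synapses, was lower by 5.42 ± 0.18, *Hpca* (hippocalcin) by 5.18 ± 0.13 and *Chrm1*, the muscarinic receptor, by 4.93 ± 0.12. The 2 exceptions were the adenylyl cyclase *Adcy1* (1.39 ± 0.093) and *Nptx1* (0.74 ± 0.082).

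The lists for the 2 forebrain regions separated them. Of 19 hippocampal genes 14 were lower in cerebellum than the forebrain average, but 6 by 2-fold against both regions, and *Dsp*, *Spink8*, *C1ql2* and *Lct* were lower than in hippocampus by 4.96 to 6.19 while they differed from cerebral cortex by -0.36 to -0.029, with no call. Of 18 genes of cortical layers 16 were lower and 12 by 2-fold against both regions. *Rgs4*, a regulator of G protein signalling, was lower by 7.58 than in cerebral cortex and by 5.40 than in hippocampus, and *Lamp5* by 7.70 and 4.64. *Cux2* was lower than in cerebral cortex by 2.48 and not called against hippocampus (0.69).

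Interneuron genes of the forebrain did not move as a block. Of 24 measured 16 were lower and 5 higher, with a median of -1.04. The peptide somatostatin (*Sst*) ranged over 2.41 to 5.53 (median 2.92) in cerebellum, against 9.78 to 10.24 (median 9.92) in cerebral cortex and 9.69 to 10.10 (median 9.88) in hippocampus. The one cerebellum array above the rest was again disomic replicate 2, and the difference was -6.68 ± 0.31, or -7.19 without the 3 arrays. Vasoactive intestinal peptide (*Vip*) was lower by 5.47 ± 0.18, *Crh* by 4.15 ± 0.21, *Npy* by 3.29 ± 0.11 and *Cck* by 3.07 ± 0.07. The GABA-synthesising enzyme *Gad2* was not called (-0.15 ± 0.08), *Gad1* was higher by 0.64 ± 0.054 and the vesicular GABA transporter *Slc32a1* by 1.32 ± 0.14. Reelin (*Reln*), made by forebrain interneurons and by cerebellar granule neurons, was the highest of the list in its difference, with 11.51 to 11.77 (median 11.60) in cerebellum, against 8.73 to 9.56 (median 9.28) in cerebral cortex and 8.07 to 9.16 (median 8.80) in hippocampus (2.67 ± 0.14).

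Immediate early genes, which neurons induce within minutes of activity, were lower in 14 of 21 and higher in 3, with a median of -1.76. *Arc* (-3.43 ± 0.32), *Nptx2* (-2.92 ± 0.16), *Dusp6* (-2.85 ± 0.23), *Egr1* (-2.65 ± 0.20) and *Junb* (-2.54 ± 0.15) were lower. *Dusp5*, a phosphatase of ERK kinases, was higher in every cerebellum array, with 8.42 to 9.31 (median 8.87) in cerebellum, against 4.21 to 5.02 (median 4.61) in cerebral cortex and 5.09 to 5.65 (median 5.34) in hippocampus (3.88 ± 0.14). *Dusp1* (1.98 ± 0.15) and *Ier2* (1.36 ± 0.14) were the other 2. *Fos* spread widely, over 5.38 to 9.47 (median 7.97) in cerebellum, against 6.62 to 8.75 (median 7.86) in cerebral cortex and 4.66 to 5.43 (median 4.79) in hippocampus. The cerebellum and cerebral cortex arrays overlapped, and *Fos* was not called against the average (1.31 ± 0.41), though it was against hippocampus (2.76). Without Ts1Cje cerebellum replicate 1 *Fos* was called higher against the average (1.71).

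Each receptor family had members called in both directions, where 14% of all genes were called higher and 17.4% lower. The counts of higher members, here and in the receptor families that follow, were not far from that share. They are therefore not read as a result about a family. Of 7 NMDA receptor genes measured, *Grin2c*, the subunit of mature granule neurons, was the 1 called higher, with 9.76 to 10.21 (median 9.88) in cerebellum, against 4.87 to 5.20 (median 5.04) in cerebral cortex and 5.0 to 5.74 (median 5.29) in hippocampus (4.77 ± 0.11). *Grin2b*, the subunit of forebrain synapses, was lower, with 2.71 to 3.21 (median 3.10) in cerebellum, against 8.06 to 8.83 (median 8.72) in cerebral cortex and 8.80 to 9.78 (median 9.10) in hippocampus (-5.87 ± 0.14). Neither gene overlapped between cerebellum and forebrain, and all 6 cerebellum arrays lay at background for *Grin2b*. *Grin2a*, which lay at background in all 3 regions, and *Grin3a* were lower by 0.62 ± 0.14 and 0.89 ± 0.15, *Grin2d* (-0.34 ± 0.13), *Grin3b* (0.17 ± 0.071) and the NMDA-associated *Grina* (0.16 ± 0.11) were not called. The call of *Grin2a* was lost without Ts1Cje cerebellum replicate 1 (-0.56).

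Of 6 metabotropic glutamate receptors measured 1 was higher and 4 lower. *Grm4*, the presynaptic receptor of parallel fibres, ranged over 8.21 to 8.70 (median 8.49) in cerebellum, against 3.40 to 3.66 (median 3.48) in cerebral cortex and 2.61 to 3.24 (median 3.05) in hippocampus, and *Grm5*, a group I receptor of forebrain dendrites, over 3.20 to 6.22 (median 3.79) in cerebellum, against 9.80 to 10.19 (median 9.98) in cerebral cortex and 10.39 to 10.62 (median 10.51) in hippocampus. The first was higher by 5.23 ± 0.094 and the second lower by 6.16 ± 0.29, again with disomic replicate 2 as the highest cerebellum array for *Grm5* (-6.52 without the 3 arrays). *Grm7*, *Grm3* and *Grm2* were lower by 1.82 to 2.76 and *Grm8* was not called (-0.31 ± 0.11), except lower without the 3 arrays (-0.45) or without disomic cerebellum replicate 2 alone (-0.41). Among 18 AMPA, kainate and delta receptor genes and their auxiliary subunits 4 were higher and 8 lower. *Gria4* and the auxiliary subunits *Cacng5* (3.50 ± 0.16) and *Cacng2* (stargazin, 1.18 ± 0.25) were higher with the kainate receptor *Grik2* (1.09 ± 0.086). *Cacng2* was not called without the 3 arrays (1.15). *Gria2* and *Gria3* were lower by 1.12 and 1.24, and *Cacng3*, *Cnih2* and *Cnih3* by 3.24 to 3.49. *Gria1* was higher than in cerebral cortex by 0.80 and lower than in hippocampus by 1.16, with no call against the average.

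GABA-A and glycine receptor subunits were higher in 3 and lower in 9 of 17. Beside *Gabra6*, the δ subunit *Gabrd*, which joins it in extrasynaptic receptors of granule neurons, was higher, with 9.52 to 10.09 (median 9.95) in cerebellum, against 7.80 to 8.21 (median 7.87) in cerebral cortex and 5.41 to 6.08 (median 5.52) in hippocampus. All 3 regions were apart from one another, and the difference of 3.07 ± 0.11 was called in 1 of the 2 probe sets of *Gabrd*. *Gabrb2* was higher by 0.56 ± 0.11. The α5 subunit *Gabra5*, known for extrasynaptic receptors of hippocampal pyramidal neurons, was lower, with 2.34 to 3.98 (median 2.67) in cerebellum, against 8.25 to 8.70 (median 8.51) in cerebral cortex and 10.23 to 10.62 (median 10.46) in hippocampus (-6.61 ± 0.17). *Gabra3*, *Gabra4*, *Gabra2*, *Gabrb1*, *Gabrg3*, *Glra3* and *Glra2* were lower by 1.72 to 3.51. *Glrb* and its anchor *Gphn* were not called, except *Gphn* without disomic cerebellum replicate 1 (0.29).

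**Figure D4:**
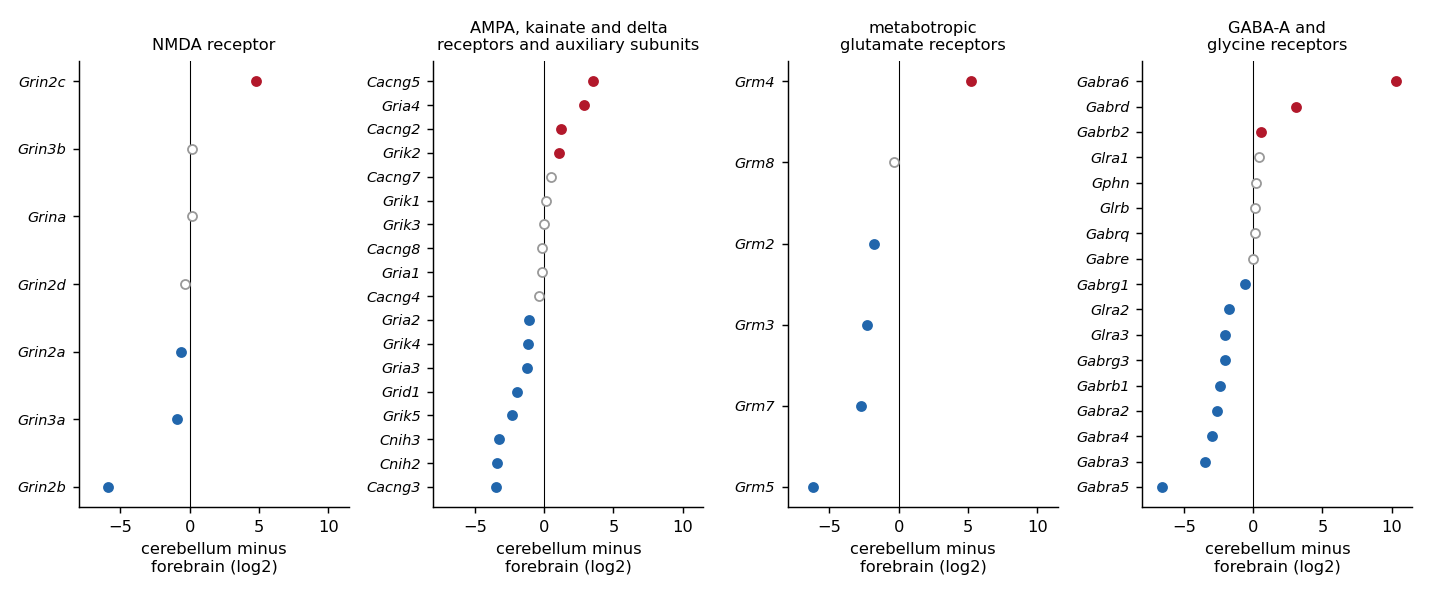
Cerebellum minus forebrain difference at P30 (x axis, log2) of each measured member of 4 receptor families (rows), with genes called higher in red, lower in blue and not called as open circles. Members called higher stand on the right (such as *Grin2c* at 4.77, *Grm4* at 5.23 and *Gabra6* at 10.30). Members called lower stand on the left (such as *Grin2b* at -5.87, *Grm5* at -6.16 and *Gabra5* at -6.61).

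Ion channels were divided in the same manner. Of 33 voltage-gated potassium channel genes 10 were higher and 18 lower, with a median of -0.60. *Kcng4*, a silent subunit, was higher, with 7.69 to 8.09 (median 7.83) in cerebellum, against 3.19 to 3.59 (median 3.41) in cerebral cortex and 3.29 to 3.67 (median 3.43) in hippocampus (4.43 ± 0.077), followed by *Kcnc1*, a fast-deactivating channel of rapidly firing neurons (3.05 ± 0.15). *Kcnq5*, a subunit of the M current, was lower, with 2.36 to 3.67 (median 2.76) in cerebellum, against 9.06 to 9.48 (median 9.36) in cerebral cortex and 8.56 to 9.13 (median 8.91) in hippocampus (-6.15 ± 0.16). Its partner *Kcnq3* was lower by 2.79 ± 0.12, and *Kcnc2*, *Kcnip2* and *Kcnf1* by 5.32 to 5.72. Of 20 calcium and sodium channel genes 7 were higher and 8 lower. The P/Q-type channel *Cacna1a* (1.79 ± 0.16), its subunit *Cacna2d2* (2.93 ± 0.17), the T-type channel *Cacna1g* (2.73 ± 0.11) and the resurgent current subunit *Scn4b* (1.76 ± 0.17) were higher. The T-type channel *Cacna1h* and the N-type channel *Cacna1b* were lower by 3.85 ± 0.19 and 1.12 ± 0.13, and *Scn3b* by 6.11 ± 0.21. The sodium channels *Scn1a*, *Scn2a* and *Scn8a* were not called.

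Calcium handling genes were higher in 13 and lower in 8 of 25, with a median of 0.43. The buffers *Calb2*, *Pvalb* (parvalbumin, 3.99 ± 0.14) and *Calb1*, the store pump *Atp2a3* (4.50 ± 0.16), the plasma membrane pump *Atp2b3* (1.54 ± 0.062), the ryanodine receptor *Ryr1* (1.77 ± 0.16) and the kinases *Camk4* (2.07 ± 0.092) and *Camk2d* (1.91 ± 0.16) were higher. *Camk2a*, *Camk1d* (-2.02 ± 0.12), *Ryr3* (-2.09 ± 0.22) and *Atp2b1* (-1.49 ± 0.084) were lower, and *Camk2b* was not called (-0.36 ± 0.10), except without disomic cerebellum replicate 1 or Ts1Cje cerebral cortex replicate 2 (-0.41 and -0.40). Among amino acid transporters 5 of 11 were higher and 4 lower. Beside *Slc1a6*, the glycine transporter *Slc6a9* was higher (2.08 ± 0.13), and the neuronal glutamate transporter *Slc1a1* (-2.83 ± 0.078) and the astrocytic *Slc1a2* (-1.31 ± 0.062) were lower.

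Proteins that span the synaptic cleft were lower more often than higher, with 13 of 21 lower and 4 higher and a median of -1.09. The 4 higher genes were *Cbln3*, *Cbln1*, *Lrrtm3* (1.48 ± 0.20) and *Nrxn3* (1.11 ± 0.10). The cerebellins *Cbln2* (-2.47 ± 0.18) and *Cbln4* (-2.91 ± 0.16) were lower, as were *Lrrtm1* (-5.01 ± 0.17), *C1ql3* (-3.81 ± 0.19) and *Nlgn1* (-2.03 ± 0.085). Of 34 vesicle and release genes 9 were higher and 15 lower, with a median of -0.20. *Stx1a*, a syntaxin of the presynaptic membrane, ranged over 3.0 to 3.87 (median 3.42) in cerebellum, against 10.80 to 11.21 (median 10.98) in cerebral cortex and 8.72 to 9.52 (median 9.04) in hippocampus, and *Syt2*, a fast calcium sensor of release, over 8.77 to 9.36 (median 9.03) in cerebellum, against 4.33 to 5.09 (median 4.61) in cerebral cortex and 3.53 to 4.47 (median 3.77) in hippocampus. *Stx1a* was lower (-6.61 ± 0.12) and *Syt2* higher (4.80 ± 0.14), each without overlap. The calcium sensor *Syt1* was lower by 1.47 ± 0.08 and the synapsin *Syn1* by 1.45 ± 0.09, while *Unc13c* (4.52 ± 0.12) and *Syt9* (4.72 ± 0.14) were higher. General release proteins such as *Snap25* (0.18 ± 0.078), *Cplx1* (0.017 ± 0.081) and *Sv2a* (0.13 ± 0.11) were not called.

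Among non-neuronal cells, microglia markers were lower in cerebellum in 16 of 17 genes and higher in 0, with a median of -1.70. With probe sets of a mean under 5 left out, 8 of the 17 were tested and all 8 were lower. Most arrays in that mean were forebrain, so the filter favoured genes high there and the count is no separate support. *P2ry12*, a purinergic receptor of resting microglia, ranged over 2.84 to 3.20 (median 3.03) in cerebellum, against 5.69 to 6.65 (median 6.20) in cerebral cortex and 5.39 to 6.75 (median 5.77) in hippocampus. *C1qa*, a complement component made by microglia, ranged over 4.81 to 5.48 (median 5.17) in cerebellum, against 7.52 to 7.91 (median 7.69) in cerebral cortex and 7.31 to 7.94 (median 7.73) in hippocampus. Neither gene overlapped between cerebellum and forebrain (-2.97 ± 0.16 and -2.52 ± 0.099), and *Csf1r* (-2.45 ± 0.14) and *Cx3cr1* (-2.18 ± 0.17) were lower too. *Trem2* was not called (-0.07 ± 0.11). The mean log2 value over the 17 genes was 4.03 to 4.42 in cerebellum arrays, against 5.83 to 6.08 in cerebral cortex and 5.66 to 5.93 in hippocampus. Oligodendrocyte precursor genes were lower in 6 of 9, led by the growth factor receptor *Pdgfra*, with 5.22 to 5.77 (median 5.45) in cerebellum, against 7.89 to 8.37 (median 8.12) in cerebral cortex and 8.0 to 8.31 (median 8.19) in hippocampus (-2.68 ± 0.084), in 1 of its 3 probe sets. Myelin genes were called higher in 3 and lower in 1 of 17, against 14% and 17.4% of all genes. *Mbp*, the myelin basic protein, ranged over 13.84 to 14.03 (median 13.97) in cerebellum, against 13.68 to 13.77 (median 13.74) in cerebral cortex and 13.72 to 13.90 (median 13.79) in hippocampus, and its difference of 0.18 ± 0.05 did not reach the threshold. *Klk6*, a protease of oligodendrocytes, was the largest exception (3.05 ± 0.19).

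Astrocyte markers moved both ways, with 9 of 24 higher and 9 lower. *Agt* (2.57 ± 0.16), *S100b* (2.07 ± 0.13), *Atp1b2* (1.78 ± 0.13) and the water channel *Aqp4* (1.43 ± 0.063) were higher. *Gpc5* (-3.41 ± 0.22), *Id3* (-1.48 ± 0.14) and *Slc1a2* were lower, *Gfap* was lower than in hippocampus (-1.69) and did not differ by the test from cerebral cortex (0.14), and *Gja1* (0.25 ± 0.079) and *Aldh1l1* (0.15 ± 0.12) were not called. Endothelial genes were called in 1 of 16, where 14% of all genes were called higher and 17.4% lower. The 1 called was the thyroid hormone transporter *Slco1c1* (-1.23 ± 0.081), with *Cldn5* (-0.03 ± 0.13) and *Slc2a1* (-0.02 ± 0.10) not called. Cell cycle genes were called higher in 3 and lower in 1 of 19, against the same shares of all genes, and oxidative phosphorylation genes were called higher in 2 and lower in 0 of 23 (*Atp5a1* and *Atp5b*, by 0.31 and 0.37), and *Atp5a1* was no longer called without several of the arrays, each left out alone, such as disomic cerebellum replicate 1 (0.27). The hedgehog pathway is the one through which Purkinje cells drive granule precursors. Of its 13 measured genes 3 were called higher and 3 lower, against 14% and 17.4% of all genes, with a median of 0.064. The receptor *Ptch1* (2.21 ± 0.073), *Boc* (2.56 ± 0.12) and *Gli1* (1.16 ± 0.085) were higher. *Ccnd2* (-4.62 ± 0.19), *Mycn* (-1.32 ± 0.12) and *Gli3* (-0.43 ± 0.076) were lower, and *Shh* (0.38 ± 0.17) was not called.

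Tissue that lies next to the dissected regions was followed by its own markers. Of all genes 14% were called higher and 17.4% lower, which are the shares to set beside the calls in these lists. The mean log2 value over 15 thalamic and hypothalamic genes was 3.33 to 3.83 in cerebellum arrays, against 3.21 to 3.34 in cerebral cortex and 3.18 to 3.39 in hippocampus, and 1 was called, the kinase *Prkcd* (2.69 ± 0.15). Over 18 brainstem genes it was 2.56 to 2.72 in cerebellum arrays, against 2.51 to 2.62 in cerebral cortex and 2.38 to 2.55 in hippocampus, with *Slc6a5* and *Th* (0.73 ± 0.085) called and *Chat* and *Tph2* at background in every array. Over 11 striatal genes it was 4.69 to 5.0 in cerebellum arrays, against 5.39 to 5.95 in cerebral cortex and 4.80 to 4.93 in hippocampus, with 2 higher and 5 lower and the dopamine receptor *Drd2* at background in every array. Choroid plexus genes averaged 2.67 to 4.31 in cerebellum arrays, against 2.40 to 2.60 in cerebral cortex and 2.61 to 4.34 in hippocampus, with 1 of 15 called (*Otx2*, also listed for unipolar brush cells). The plexus transcript *Ttr* (transthyretin) ranged over 6.15 to 13.72 (median 7.96) in cerebellum, against 3.40 to 5.71 (median 3.87) in cerebral cortex and 4.33 to 13.73 (median 7.47) in hippocampus. It was above 13 in 2 cerebellum and 2 hippocampus arrays and the regions overlapped, so its difference of 2.80 ± 1.44 was not called. Meningeal genes averaged 4.88 to 5.31 in cerebellum arrays, against 4.77 to 5.16 in cerebral cortex and 4.43 to 5.09 in hippocampus with 4 of 15 called, and blood genes 2.41 to 2.75 in cerebellum arrays, against 2.36 to 2.57 in cerebral cortex and 2.31 to 2.47 in hippocampus with 1 of 6 called. The part of adjacent tissue in the regional differences was not tested beyond leaving out the 3 arrays.

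Whether the regional difference depended on genotype was tested as the Ts1Cje minus disomic difference in cerebellum minus that in forebrain. With limma 0 of 45101 probe sets were called, the smallest adjusted p was 0.202 (*Prpf4b*), and 4675 probe sets (10.4%) had an unadjusted p under 0.05. That share is above the 0.05 that the threshold itself would give without any dependence on genotype. The count of 0 therefore does not show that the regional difference was the same in both genotypes. All 1750 genes past both forebrain regions by 2-fold had a difference of the same sign in Ts1Cje and in disomic mice. These genes were chosen with both genotypes pooled, so the shared sign was largely set by the choice and is no test of genotype. *Gabra6* differed by 9.93 in Ts1Cje and by 10.68 in disomic mice, *En2* by 7.20 and 7.06, and *Ddn* by -8.33 and -8.13. Leaving out disomic cerebellum replicate 1 turned the count of 0 into 31 genes higher and 33 lower, whereas leaving out any of the other 17 arrays gave at most 2 in either direction.

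The regional difference at P30 was set against those of P1 (P1.5 in the methods), P15 and P84 in a fit over the 72 arrays. At P15 a pair of arrays went against their labels. The array labelled disomic P15 cerebellum replicate 3 had 2.02 for *Gabra6* and 10.95 for *Neurod6*, where the other 5 arrays labelled P15 cerebellum had 12.08 to 12.41 and 3.87 to 4.76, and the array labelled disomic P15 hippocampus replicate 3 had 12.04 and 3.51, where the other 5 had 1.97 to 2.35 and 10.55 to 11.05. Another 3 disomic arrays, of P1 cerebellum, P84 cerebral cortex and P84 hippocampus, all replicate 3, were dim, with upper quartiles of 4.97, 5.23 and 5.51, against 5.65 to 5.93 on the other 69 arrays. With the labels kept and all 72 arrays, the regional difference changed by the test between P1 and P30 in 1576 genes upwards (8.66%) and in 1893 downwards (10.4%), between P15 and P30 in 217 (1.19%) and 284 (1.56%), and between P30 and P84 in 12 (0.066%) and 10 (0.055%). Without the 5 arrays these counts were 1575 and 2500, 294 and 398, and 43 and 51. Leaving out Ts1Cje replicate 1 or 2 lowered the upward count of P15 against P30 to 123 or 141, and leaving out Ts1Cje replicate 2 or 3 its downward count to 172 or 173. The counts between P30 and P84 were 3 to 13 and 3 to 15 with 1 replicate left out.

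Of the 770 genes higher in cerebellum than in both regions at P30, 298 were called higher at P1, 721 at P15 and 756 at P84 without the 5 arrays, and 45 were called lower at P1. Of all 18194 genes 11.9% were called higher at P1, 12% at P15 and 12.4% at P84, and 9.02% lower at P1. With all arrays these numbers were 208, 650, 752 and 41, where 9.5%, 8.13% and 12% of all genes were higher and 9.72% lower at P1. The median difference of the 770 genes was 0.37 at P1, 1.61 at P15, 1.78 at P30 and 1.71 at P84 without the 5 arrays. Of the 980 lower genes, 451 were called lower at P1, 922 at P15 and 974 at P84, with medians of -0.53, -1.92, -2.03 and -2.07 at the 4 ages, where 9.02%, 14.7% and 15% of all genes were lower at P1, P15 and P84. With all arrays 361, 847 and 954 were called, where 9.72%, 9.68% and 12.4% of all genes were. The P30 arrays chose both sets of genes, so their level at P30 is no finding, while the arrays of other ages were not used to choose them.

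**Figure D5:**
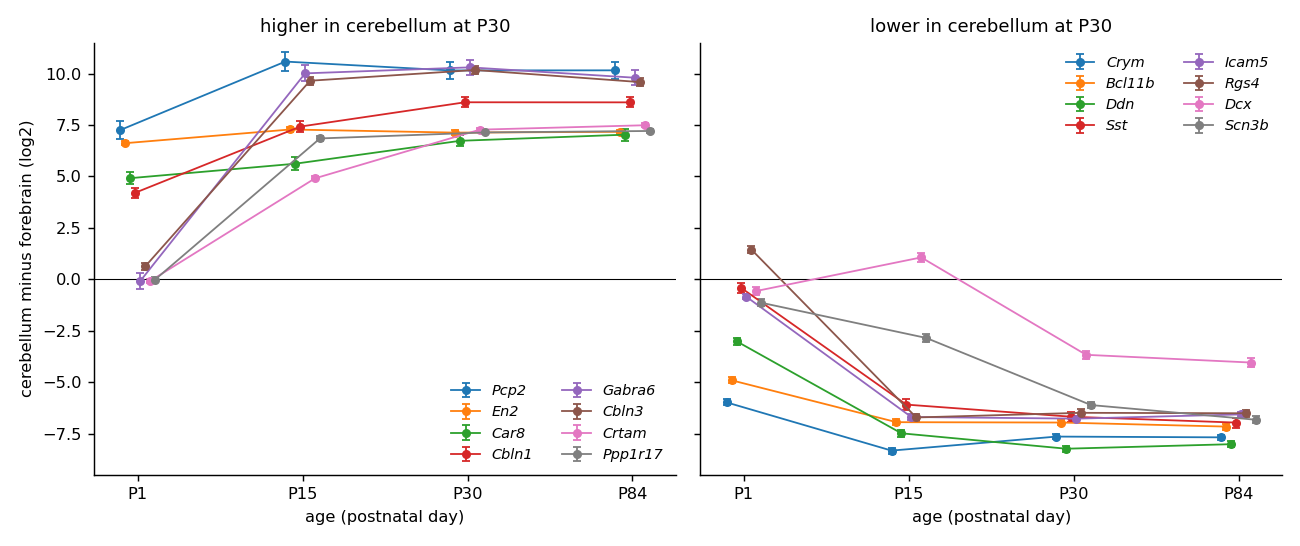
Cerebellum minus forebrain difference (y axis, log2) at P1, P15, P30 and P84 (x axis) of 8 genes higher (left) and 8 lower (right) in cerebellum at P30, with points slightly offset and bars as standard errors from the fit without the 5 disomic arrays. *Pcp2*, *En2* and *Crym* differed from P1 on, *Gabra6* and *Cbln3* from P15 on, and *Dcx* and *Scn3b* reached their P30 difference after P15.

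The named genes followed different courses, given here without the 5 arrays. The Purkinje cell gene *Pcp2* and the patterning gene *En2* differed from P1 on, with *Pcp2* at 7.26 at P1, 10.58 at P15, 10.15 at P30 and 10.16 at P84, and *En2* at 6.62, 7.28, 7.13 and 7.17 at the same ages. Among the lower genes *Crym* (-5.98, -8.32, -7.64 and -7.68) was alike. The granule neuron gene *Gabra6* was not called at P1 and was higher from P15 on. It stood at -0.086 at P1, 10.01 at P15, 10.30 at P30 and 9.80 at P84, a change between P1 and P30 of 10.39 ± 0.51, and its P15 difference was 7.47 with all arrays. *Cbln3* (9.55 ± 0.26), *Crtam* (7.36 ± 0.13) and *Ppp1r17* (7.15 ± 0.14) were not called at P1 either and changed the same way. *Sla*, an adaptor protein, crossed over, with a difference of -5.04 at P1 and 1.55 at P30. *Rgs4* (-7.94 ± 0.26), *Ctxn1* (-6.44 ± 0.21), *Lamp5* (-6.53 ± 0.21), *Resp18* (-6.33 ± 0.34) and *Icam5* (-5.92 ± 0.18) changed in the other direction. *Rgs4* and *Resp18* were higher in cerebellum at P1 (1.45 and 3.23), although *Rgs4* was not called at P1 with all arrays.

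A further group changed between P15 and P30. Doublecortin (*Dcx*), a microtubule protein of immature neurons, stood at -0.57 at P1, 1.06 at P15, -3.67 at P30 and -4.04 at P84. *Insm1*, a zinc finger factor of neuronal precursors, stood at 0.79, 3.22, -2.12 and -2.32. Both were called higher in cerebellum at P15 and lower at P30. *Miat* (-3.88 ± 0.35), *Scn3b* (-3.26 ± 0.24) and *Basp1* (-3.85 ± 0.25) also changed downwards, and *Ctxn3* (2.69 ± 0.19), *Crtam* (2.37 ± 0.13), *Atoh7* (2.33 ± 0.28), *Cntn6* (2.25 ± 0.24) and *Patj* (2.19 ± 0.26) upwards. Among the genes named, the largest change between P30 and P84 was that of the activity-induced *Nr4a2* (-2.30 ± 0.32).

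Probe sets of 1 gene did not always agree. Of 784 genes with 2 or more probe sets called at 2-fold, 11 had probe sets called in opposite directions. *Syne1*, a large spectrin-repeat protein with a brain form, had 1 probe set lower in cerebellum by 4.90 and 2 higher by 2.44 and 2.46. *Vma21*, *Trio*, *Tnik*, *Slc8a1*, *Anks1b*, *Iqsec2*, *Septin11*, *Fam184b*, *Wdr37* and *Wtap* were the other 10, and probe sets may cover different transcripts of a gene, which the annotation used does not tell.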

How the data were processed

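RNA of cerebral cortex, hippocampus and cerebellum of Ts1Cje and disomic mice was measured on Affymetrix Mouse Genome arrays, and the authors deposited log2 values made with gcRMA (version not given in the sources used here) for 45101 probe sets on 72 arrays. gcRMA corrects the background by base composition and normalises arrays against one another, so differences in total RNA are not seen. Upper quartiles of the deposited values still ran from 4.97 to 5.93 over the 72 arrays. The number of arrays, 3 per group, limits the precision.

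The platform annotation named 1 gene for 34958 probe sets, several for 932 and none for 9211, and 34754 symbols were updated through RefSeq identifiers. The deposited values of the 18 P30 arrays entered a linear model in limma 3.58.1 (R 4.3.3), with 1 mean per region and a genotype term, and constant-prior eBayes. Calls needed a moderated t beyond 4 in either direction and an adjusted p (Benjamini-Hochberg, 45101 probe sets) up to 0.05. A 24-group fit of all 72 arrays gave the other ages. The code was tested on simulated data.

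Named genes were the 15 with the largest difference in each direction among genes past both regions without overlap, list members with the largest differences and members that did not pass, the 5 genes per direction with the largest change against each other age, and defining markers. *Prpf4b*, *Zbtb20*, *Cabp7* and the 11 genes with opposed probe sets were chosen after their values were seen. The members and lists were chosen with earlier results of these data known. Alternatives were a replicate block, 6 group means, all 72 arrays, each genotype alone, a trended prior, quantile normalization, a filter on low values, all probe sets of a gene and leaving out arrays. The labels do not tie replicate numbers to mice and not every same-numbered pair deviated together (r over 0.1 in 12 of 18), so the numbers were not used as pairs in the results reported. Some genes are not reported here.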

Additional observations from a re-analysis of the deposited data

Results flagged for a closer look

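In 20 of 156 sets of 6 arrays (1 gene or list in 1 region) the highest or lowest array lay far from the other 5, which is 12.8%. The critical value allows about 5% among independent sets of like arrays. These sets were of chosen genes and lists, shared arrays and mixed both genotypes, so that share is no chance rate for them. Of the 20 sets, 10 concerned disomic cerebellum replicate 2, which was high in *Bcl11b* (3.47), *Meis2* (5.72), *Nrgn* (5.16), *Enc1* (8.05), *Sst* (5.53), *Vip* (3.75), *Grm5* (6.22), *Gabra5* (3.98), *Tcf7l2* (7.17) and the mean of the thalamic and hypothalamic markers (3.83). Ts1Cje hippocampus replicate 3 was high in *Gabra6* (5.12), *Cbln3* (3.02), *Pcp2* (6.39) and *Slc1a6* (4.99). The remaining sets were *Cux1* in disomic cerebellum replicate 1 (9.20) and disomic cerebral cortex replicate 3 (7.37), *Ppp1r17* in Ts1Cje cerebral cortex replicate 2 (2.67), *Lhx1* in Ts1Cje cerebral cortex replicate 1 (1.66), the thalamic and hypothalamic markers in disomic hippocampus replicate 3 (3.18) and the microglia markers in Ts1Cje cerebral cortex replicate 2 (6.08).

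The regional difference changed between ages, by limma over all 72 arrays, in 30 named cases. From P1 to P30 it changed by 10.43 in *Gabra6*, 9.69 in *Cbln3*, 7.13 in *Crtam*, 6.99 in *Ppp1r17* and 6.66 in *Sla*, and by -7.69 in *Rgs4*, -6.42 in *Ctxn1*, -6.42 in *Lamp5*, -6.36 in *Resp18* and -6.08 in *Icam5*. From P15 to P30 it changed by 3.62 in *Crtam*, 3.31 in *Patj*, 2.88 in *Ctxn3*, 2.88 in *Cntn6* and 2.80 in *Atoh7*, and by -4.85 in *Insm1*, -4.56 in *Dcx*, -4.49 in *Miat*, -4.22 in *Scn3b* and -4.22 in *Basp1*. These P15 values include the pair of arrays that went against their labels, and without the 5 disomic arrays *Crtam* changed by 2.37 and *Patj* by 2.19. From P30 to P84 it changed by 1.61 in *Fam117a*, 1.48 in *Mpp4*, 1.23 in *Sulf1*, 1.21 in *Opn3* and 1.19 in *Ifit3*, and by -2.24 in *Nr4a2*, -1.47 in *Sh3gl3*, -1.35 in *Serpinb2*, -1.27 in *Serpinb1a* and -1.08 in *Denn2b*.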

How the results depend on the processing

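The counts against the forebrain average, each forebrain region and both regions stayed within 1.5 times of those reported under 6 group means, all 72 arrays, disomic arrays alone, a trended prior, quantile normalization, all probe sets of a gene and leaving out any 1 array. With Ts1Cje arrays alone 1438 genes were higher than in hippocampus. A mean of at least 5 left fewer probe sets to test, with 1589 genes higher than in forebrain, 1489 than in cerebral cortex, 1335 than in hippocampus and 486 than in both, 1026 and 1021 changed between P1 and P30, 100 upwards between P15 and P30 and 4 upwards between P30 and P84. Requiring a difference of at least 1 gave 958 higher and 1301 lower against forebrain, 1001 and 1318 against cerebral cortex, and 937 and 1327 against hippocampus. With 1 array left out the genotype by region test gave 0 to 31 genes higher and 0 to 33 lower, and with 1 replicate left out the age counts were 123 to 234 and 172 to 311 between P15 and P30, and 3 to 13 and 3 to 15 between P30 and P84. Without the 5 disomic arrays of other ages the last 2 counts were 43 and 51. Arrays of the same number and genotype deviated together with r over 0.1 in 12 of 18 pairs (from -0.216 to 0.547), the own number was closest in 10 of 18, and with the number as a replicate block 2629 genes were higher and 3273 lower (random block, correlation 0.028, 2556 and 3196), which changed no count by 1.5 times. Of the gene lists, a mean of at least 5 left 13 of 24 forebrain interneuron genes to test (7 lower), 10 of 19 hippocampal (6 lower), 14 of 21 immediate early (9 lower), 10 of 17 GABA-A and glycine receptor (5 lower) and 21 of 33 potassium channel genes (10 lower), besides those given beside their lists and smaller ones. That mean ran over more forebrain than cerebellum arrays, so the list counts under it give no separate support to either direction. Without the 3 arrays that stood apart, chosen after seeing the data, no count over all genes moved by 1.5 times, and of the lists the lower members became 2 in place of 1 among hindbrain factors, 2 in place of 1 among cell cycle genes and 1 in place of 0 in choroid plexus. Of 6884 values of 248 named genes under 28 alternatives, 6820 kept their side of the threshold. Called genes among these also kept their direction, while a change of sign in a gene not called was counted as kept. The call changed under at least 1 alternative in 20 genes, and 0 called genes reversed. With all 72 arrays *Slc17a7*, *Sox2*, *Gli3*, *Cux2*, *Cacng2*, *Neurod2* and *Atp5a1* were not called, and with a trended prior *Mbp* was called and *Neurod2* was not. The cause was not tested. Low signal limits the size of differences against levels at background.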
